A study of Mus musculus with 35 samples.

Results

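The DNA replication and mitosis genes are 40 genes of the core cell cycle machinery, 23 of DNA replication and 17 of mitosis. Every probe on a whole-mouse-genome array whose gene name was one of these 40 was taken. The array held 57 such probes for 39 of the genes, of 41174 gene probes under 27962 gene names, and no probe carried the name Rfc1. Thus 22 replication genes and 17 mitosis genes were measured. Of the 57 probes, 53 passed the filter on dim probes and entered the tests, among 27623 probes tested. Each gene is given by its probe with the highest mean over the clones and ES arrays, and 14 genes had more than 1 probe. The probe given was well above background on all 35 arrays for 38 genes, and for Ttk on every array except that of the OP source cells.

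The arrays measured RNA from induced pluripotent stem (iPS) clones, embryonic stem (ES) lines and the adult mouse cells from which the clones were made, to ask how the starting cell and the use of c-Myc affect the clones. The sources were PaS cells (bone marrow mesenchymal stem cells sorted as CD45-, Ter119-, PDGFRa+ and Sca-1+), OP cells (osteo-progenitors sorted as CD45-, Ter119-, PDGFRa- and Sca-1-) and TTF (tail tip fibroblasts). Retroviruses delivered Oct3/4, Sox2 and Klf4 (3F) or these with c-Myc (4F), which gave 6 groups of 5 clones named 4F-PaS-iPS, 3F-PaS-iPS, 4F-OP-iPS, 3F-OP-iPS, 4F-TTF-iPS and 3F-TTF-iPS. Each array held 1 clone, and 2 ES lines (EB-3 and RF 8) and each source had 1 array. The source cells came from 6-week-old mice with a Nanog promoter driving green fluorescent protein and puromycin resistance, all infections carried a DsRed reporter virus, and all clones were picked under puromycin and grown on SNL feeder cells. The sorted cells were expanded before infection, and whether the source arrays hold expanded or fresh cells is not given in the sources used here. Nothing states that the clones of a group came from separate infections, so p-values measure the spread between these clones.

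Before DNA synthesis, Cdc6 and Cdt1 load the Mcm helicase onto origins and Gmnn (geminin) keeps Cdt1 from loading it again. Replication factor C (Rfc genes) then loads the sliding clamp Pcna for the polymerases, while Rrm1, Rrm2 and Tyms make the nucleotides. Mitosis is driven by cyclins and the kinases Plk1 and Aurka, checked at the spindle by Bub1, Bub1b, Mad2l1 and Ttk, and released by Cdc20. Replication genes are typically switched on at the start of S phase through E2F sites, and mitosis genes later through a short element called the cell cycle homology region (CHR). Mouse ES cells are known for rapid division with a short gap before S phase.

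The promoters of both classes are shown first because they describe the genes by sequence, which the choice of members did not use. RefSeq promoters of the mouse build GRCm38.p6, from 250 bases before to 50 after each gene's start, were found for 19 of 23 replication genes and 15 of 17 mitosis genes, and were searched on both strands. The letters TTTCGCGC or TTTGGCGC, a strict form of the E2F site, were in 7 of 19 replication promoters (36.8%: Mcm3, Mcm5, Mcm6, Mcm7, Cdt1, Rfc3 and Pola1) and 0 of 15 mitosis promoters, against 0.929% of 27025 gene symbols. The CHR letters TTTGAA were in 10 of 15 mitosis promoters (66.7%: Ccnb2, Plk1, Aurka, Bub1b, Top2a, Mki67, Cenpa, Kif11, Cdc20 and Ttk) and 1 of 19 replication promoters (5.26%: Mcm2), against 20.2% of all symbols. CCAAT letters were in 68.4% of the replication and 86.7% of the mitosis promoters, against 41.1% of all. Such a match is only a match of letters in this window. The 150 bases before the start are printed 5' to 3' on the gene's strand for Pola1 and Mcm6, replication genes described below, and for 4 mitosis genes, with the E2F letters (Pola1, Mcm6) or the CHR letters (the others) of either strand in capitals.
Pola1, chrX:93632156-93632305, minus strand: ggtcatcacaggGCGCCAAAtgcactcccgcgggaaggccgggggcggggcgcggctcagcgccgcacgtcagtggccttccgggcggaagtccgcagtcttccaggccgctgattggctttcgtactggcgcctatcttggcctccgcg
Mcm6, chr1:128359706-128359855, minus strand: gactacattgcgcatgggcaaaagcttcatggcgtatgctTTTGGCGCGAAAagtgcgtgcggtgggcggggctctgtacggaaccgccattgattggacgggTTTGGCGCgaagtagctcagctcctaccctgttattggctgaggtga
Mki67, chr7:135716380-135716529, minus strand: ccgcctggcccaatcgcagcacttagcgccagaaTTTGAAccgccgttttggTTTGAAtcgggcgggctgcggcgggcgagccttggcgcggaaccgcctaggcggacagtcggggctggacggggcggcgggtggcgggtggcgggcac
Top2a, chr11:99024190-99024339, minus strand: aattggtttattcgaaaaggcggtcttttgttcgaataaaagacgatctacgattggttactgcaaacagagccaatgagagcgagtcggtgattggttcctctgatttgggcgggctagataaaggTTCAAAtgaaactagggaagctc
Kif11, chr19:37376232-37376381, plus strand: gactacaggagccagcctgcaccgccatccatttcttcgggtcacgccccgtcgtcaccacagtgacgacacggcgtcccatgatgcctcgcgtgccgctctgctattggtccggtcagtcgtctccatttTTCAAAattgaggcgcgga
Cdc20, chr4:118437344-118437493, minus strand: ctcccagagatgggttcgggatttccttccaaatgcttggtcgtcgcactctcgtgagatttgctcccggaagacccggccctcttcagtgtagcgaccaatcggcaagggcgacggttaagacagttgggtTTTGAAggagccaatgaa
In Mcm6, E2F matches on opposite strands overlap at -110 and -106 from the start and a separate match lies at -47. Pola1 has 1 match, at -138. Mki67 has CHR letters at -116 and -98, Kif11 at -19 and Cdc20 at -18. Top2a has them at -23 and, outside the bases printed, at -179.

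Levels are log2 of the array's processed signal minus log2 of that array's 75th percentile, so a difference of 1 is 2-fold. The 30 clones had 56.6% to 65.7% of probes well above background. All 30 were scanned in 1 session on 8 slides, EB-3 and the 3 source arrays shared a slide in another session, and RF 8 had a slide and session of its own. 3F and 4F clones made from one source were never on the same slide. Within a source, slide and factors therefore cannot be told apart, and neither can session and cell type between clones and ES lines. The summed level of 12 pluripotent cell markers was 7.73 or more on all clones of 4 groups. It ranged from 3.75 to 9.09 (median 4.60) in 4F-OP-iPS and from 4.03 to 8.73 (median 7.94) in 4F-TTF-iPS. The brightest marker weighs most in this sum. Dppa5a alone had a median of 8.45 over the 30 clones, against 8.61 for the sum. In 3 clones (numbers 1 and 3 of the 4F-OP-iPS group and number 1 of the 4F-TTF-iPS group) Sox2 was at -8.21 to -5.27 and Nanog at -8.24 to -6.06, below the other 27 clones (at least -2.04 and -3.30), and these 3 are called the clones lacking Sox2 and Nanog. With its median at 4.60, the 4F-OP-iPS group also held a low marker sum in a clone outside these 3. Among the source arrays, the RNA of 1 sort marker ran against the labels. Pdgfra was at 1.58 on the OP array (sorted as PDGFRa-), 0.98 on the PaS array (sorted as PDGFRa+) and 0.59 on the TTF array.

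Among the clones, the members varied unequally. The SD of a gene over the 30 clones had a median of 0.40 for replication genes (0.21 to 0.79) and 0.35 for mitosis genes (0.25 to 0.45), against 0.47 over all probes tested. Pola1, the catalytic subunit of the polymerase that starts new strands, had the widest spread (SD 0.79, range 2.82), and the clamp loader subunits Rfc2, Rfc3 and Rfc4 had the narrowest among replication genes (SD 0.21 to 0.23).

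For each array, a list's value was the median over its genes of the level minus that gene's median over the 30 clones. Replication values of the 15 4F clones ran from -0.08 to 0.84 with a median of 0.24, and those of the 15 3F clones from -0.52 to 0.33 with a median of -0.16. Mitosis values ran from -0.33 to 0.59 (median 0.09) in 4F clones and from -0.66 to 0.27 (median -0.01) in 3F clones. Both lists overlapped between 3F and 4F over the 3 sources together, but the TTF-derived clones did not overlap for replication genes, with 0.18 to 0.44 in 4F-TTF-iPS and -0.23 to -0.01 in 3F-TTF-iPS.

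**Figure D1:**
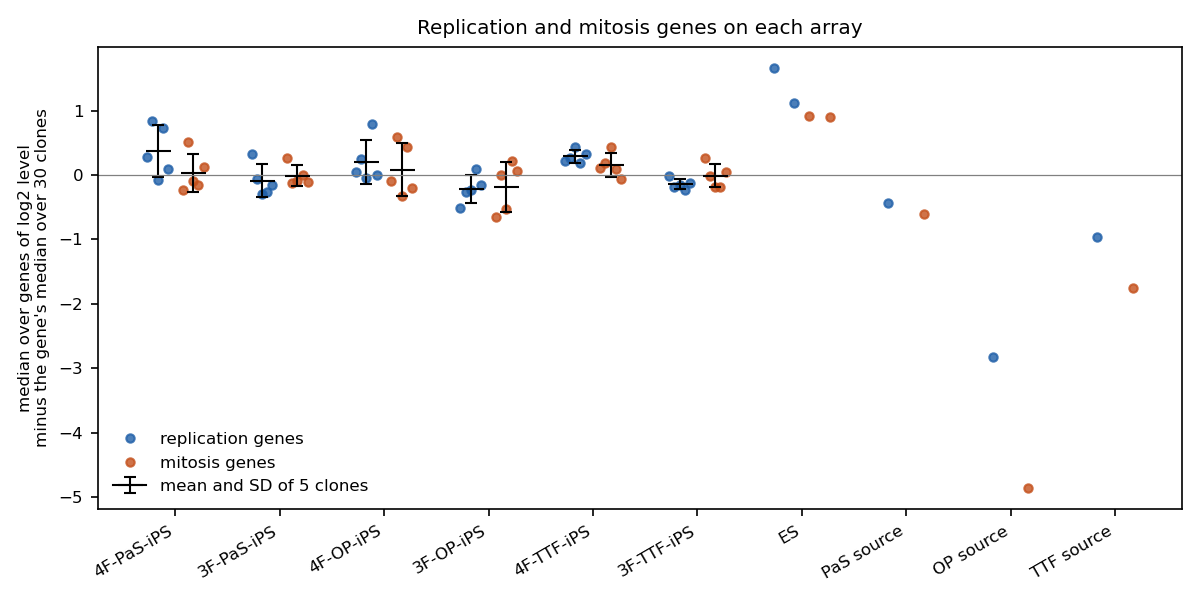
Median level of replication genes (blue) and mitosis genes (orange) on each array, as the log2 difference from each gene's median over the 30 clones, by group, with bars for the mean and SD of 5 clones. The ES arrays lie above every clone (replication 1.66 and 1.11), and the OP source array lies far below the clones (-2.83 for replication, -4.86 for mitosis).

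The highest clone was 4F-PaS-iPS 2 for 10 of 22 replication genes and 4F-PaS-iPS 4 for 8. For 9 of 17 mitosis genes it was 4F-OP-iPS 2. The lowest clone was 3F-OP-iPS 1 for 11 replication and 10 mitosis genes, with list values of -0.52 and -0.66. The classes did not always move together. In 4F-PaS-iPS 4 the replication value was 0.73 with a mitosis value of -0.15, and in 4F-PaS-iPS 1 these were 0.28 and -0.24, whereas 4F-PaS-iPS 2 was high in both (0.84 and 0.51).

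**Figure D2:**
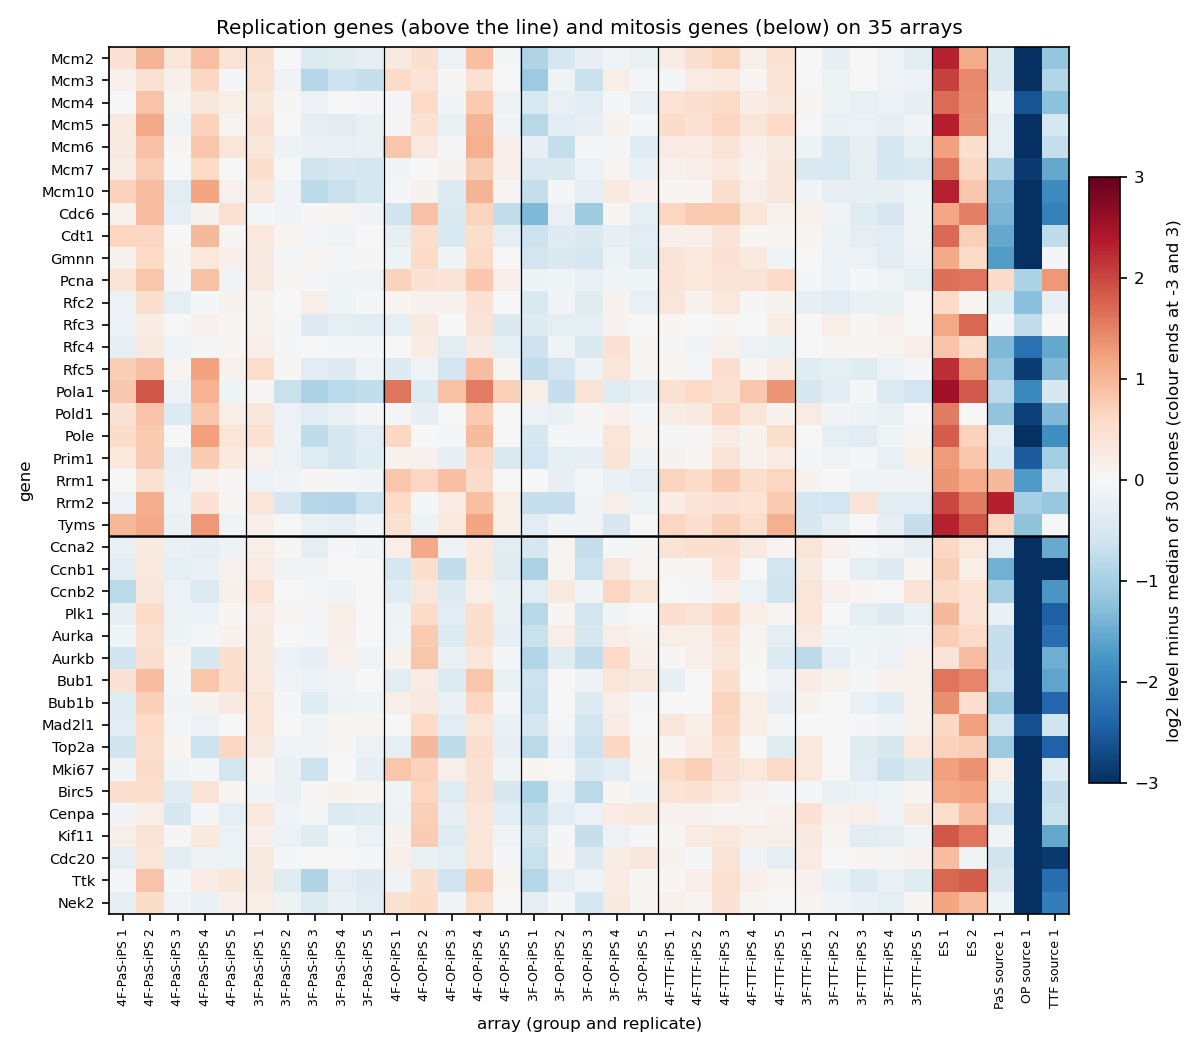
Level of each of the 39 genes (rows, replication above mitosis) on each of the 35 arrays (columns), as the log2 difference from the gene's median over the 30 clones, with the colour scale ending at -3 and 3. The columns of both ES arrays are high for most rows, and the OP source column is low for nearly all rows.

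Replication gene levels were lower in 3F than in 4F clones. Over the 3 sources together, 19 of 22 replication genes and 5 of 17 mitosis genes fell in 3F against 4F clones (limma, adjusted p under 0.05 over all probes), and none rose. In that comparison 9.89% of all probes tested were lower and 11.3% higher. The median difference was -0.51 for replication genes and -0.24 for mitosis genes, against 0.03 over all probes. This comparison was added after the values had been seen, and uses the same clones as the 3 comparisons within sources described further on. In these bulk samples, fewer cycling cells and less RNA per cell cannot be told apart.

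The replication genes that fell included all 7 Mcm genes measured, the loaders Cdc6 and Cdt1, Gmnn, Pcna, Rfc2, Rfc5, Pola1, Pole, Prim1, Rrm1, Rrm2 and Tyms. Pola1 ranged from -0.41 to 0.93 (median 0.14) in the 3F clones and from 0.15 to 2.41 (median 1.35) in the 4F clones, a difference of -1.14 (SE 0.199, limma adjusted p = 0.000347). Tyms, thymidylate synthase, ranged from 2.00 to 2.84 (median 2.48) in 3F and from 2.48 to 3.99 (median 3.22) in 4F clones, a difference of -0.78 (SE 0.143, limma adjusted p = 0.000566). The 3F and 4F ranges overlapped for both genes, for Tyms only between 2.48 and 2.84.

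Rrm2, the regulated subunit of ribonucleotide reductase, ranged from 0.66 to 1.93 (median 1.04) in 3F and from 1.38 to 2.64 (median 1.92) in 4F clones, a difference of -0.72 (SE 0.147). Mcm2 of the helicase ranged from 1.58 to 2.96 (median 2.24) in 3F and from 2.30 to 3.50 (median 2.91) in 4F clones, a difference of -0.66 (SE 0.128). For both genes the ranges overlapped. The other 15 replication genes that fell did so by between 0.24 (Rfc2) and 0.63 (Mcm6) on the log2 scale, so that only Pola1 passed 2-fold. The 3 that missed the threshold were Pold1 (-0.33, adjusted p = 0.083), Rfc3 (-0.13) and Rfc4 (0.02).

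The mitosis genes that fell were Mki67 (the Ki-67 antigen of cycling cells, -0.47, SE 0.115), the checkpoint kinase Ttk (-0.44, SE 0.134), the chromosomal passenger subunit Birc5 (-0.33, SE 0.12), the spindle motor Kif11 (-0.33, SE 0.101) and the centrosome kinase Nek2 (-0.27, SE 0.0983). The other 12 lay between -0.25 and 0.27. Among them were the mitotic cyclins Ccnb1 (-0.01) and Ccnb2 (0.27, limma adjusted p = 0.107), the topoisomerase Top2a (-0.12) and Cdc20 (0.05). CHR letters were in promoters of both kinds. Among the genes that fell they were in those of Mki67, Ttk and Kif11. Among the others they were in those of Ccnb2, Plk1, Aurka, Bub1b, Top2a, Cenpa and Cdc20.

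With slide taken as a random block, 7 members kept an adjusted p under 0.05 (Mcm2, Mcm6, Pcna, Pola1, Rrm1, Rrm2 and Tyms). The difference was below 0 in each of the 3 sources for 19 of 22 replication genes (86.4%) and 8 of 17 mitosis genes (47.1%), against 19.3% of all probes tested.

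Within PaS-derived clones no member passed the threshold, where 0.0145% of all probes were lower and 0.00724% higher. At an unadjusted p under 0.05 there were 13 replication and 2 mitosis genes, and 4773 probes in all. The median difference was -0.52 for replication genes and -0.01 for mitosis genes, against 0.00 over all probes. Pola1 had 0.58, -0.11, -0.41, -0.27 and -0.18 in the 3F-PaS-iPS clones and 1.35, 2.41, 0.39, 1.60 and 0.41 in the 4F-PaS-iPS clones (difference -1.31, SE 0.344, limma adjusted p = 0.125). The replication initiator Mcm10 had 3.95, 3.48, 2.80, 2.93 and 3.08 in 3F-PaS-iPS and 4.30, 4.52, 3.26, 4.78 and 3.74 in 4F-PaS-iPS (difference -0.87, SE 0.289, limma adjusted p = 0.155). For both genes clone 3F-PaS-iPS 1 lay within the 4F range, and the 4F clones were widely spread. No member had all 3F clones below all 4F clones, as 1.12% of all probes did. With normexp background correction no member passed either, while 286 probes were lower and 142 higher, and the replication median was -0.33 against -0.222 over all probes. Without clone 4F-PaS-iPS 3, which was low for Pola1 and Mcm10 in its group, 5 members passed the threshold.

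Within OP-derived clones 4 of 22 replication genes fell and none of 17 mitosis genes did, where 3.27% of all probes were lower and 4.83% higher. The median difference was -0.48 for replication and -0.32 for mitosis genes, against 0.02 over all probes. Rrm1, the large subunit of ribonucleotide reductase, had 3.07, 2.84, 3.05, 2.88 and 2.80 in 3F-OP-iPS and 3.90, 3.70, 3.98, 3.65 and 3.09 in 4F-OP-iPS (difference -0.74, SE 0.134, limma adjusted p = 0.00229). Pcna had 4.41, 4.44, 4.35, 4.49 and 4.43 in 3F-OP-iPS and 5.26, 5.01, 4.94, 5.38 and 4.72 in 4F-OP-iPS (difference -0.64, SE 0.155, limma adjusted p = 0.0135). For both, every 3F clone was below every 4F clone, and clone 4F-OP-iPS 5 was the lowest of the 4F clones. The groups of Rrm1 nearly touched (3.07 against 3.09).

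Mcm6 had 5.52, 5.05, 5.70, 5.74 and 5.41 in 3F-OP-iPS and 6.60, 6.03, 5.73, 6.83 and 5.95 in 4F-OP-iPS (difference -0.74, SE 0.197, limma adjusted p = 0.0212). Gmnn had 5.0, 5.11, 5.03, 5.39 and 5.18 in 3F-OP-iPS and 5.40, 6.12, 5.46, 6.13 and 5.56 in 4F-OP-iPS (difference -0.59, SE 0.154, limma adjusted p = 0.0197). The groups overlapped for Mcm6, where clone 3 of 4F-OP-iPS lay within the 3F range, and nearly touched for Gmnn. In all, 3 replication genes and no mitosis gene had every 3F clone below every 4F clone, a pattern found in 2.7% of all probes. Only Rrm1 passed with slide as a random block, where the others were at -0.58 to -0.76 (limma adjusted p = 0.0845 to 0.134). Without the 3 clones lacking Sox2 and Nanog only Gmnn passed, at -0.79, while Mcm6 was at -0.78 (limma adjusted p = 0.0882), Pcna at -0.62 (0.105) and Rrm1 at -0.55 (0.0672). With only the OP-derived clones in the fit, no member passed.

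Within TTF-derived clones 6 of 22 replication genes and 1 of 17 mitosis genes fell, where 4.36% of all probes were lower and 5.75% higher. The median difference was -0.48 for replication and -0.22 for mitosis genes, against 0.04 over all probes. Pola1 had 0.05, 0.22, 0.52, 0.14 and -0.03 in 3F-TTF-iPS and 1.01, 1.15, 1.00, 1.35 and 1.88 in 4F-TTF-iPS (difference -1.10, SE 0.344, limma adjusted p = 0.0412). Tyms had 2.21, 2.42, 2.70, 2.39 and 2.00 in 3F-TTF-iPS and 3.33, 3.20, 3.40, 3.22 and 3.76 in 4F-TTF-iPS (difference -1.04, SE 0.248, limma adjusted p = 0.00982). For both genes every 3F clone was well below every 4F clone.

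Mki67, the mitosis gene that fell, had 3.80, 3.47, 3.18, 2.88 and 3.06 in 3F-TTF-iPS and 4.06, 4.2, 3.92, 3.81 and 4.06 in 4F-TTF-iPS (difference -0.73, SE 0.198, limma adjusted p = 0.0195). Rrm1 had 3.19, 3.08, 2.97, 2.98 and 2.97 in 3F-TTF-iPS and 3.76, 3.66, 3.84, 3.62 and 3.72 in 4F-TTF-iPS (difference -0.69, limma adjusted p = 0.00269). The groups of Mki67 nearly touched, at 3F-TTF-iPS 1 and 4F-TTF-iPS 4, while those of Rrm1 were well apart.

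Mcm7 (-0.64, adjusted p = 0.0433), Mcm4 (-0.56, adjusted p = 0.0346) and Pcna (-0.53, adjusted p = 0.029) completed the TTF list in the limma fit. Every 3F clone was below every 4F clone for 13 replication genes and 1 mitosis gene, a pattern found in 8.97% of all probes. With slide as a random block no member passed, with differences of -0.51 to -1.24 for the same 7. Without the 3 clones lacking Sox2 and Nanog 3 passed (Mki67, Rrm1 and Tyms), and the other 4 were at -0.53 to -1.17, with Pola1 at -1.17 (limma adjusted p = 0.0598). The count was 3 without 4F-TTF-iPS 1, 4F-TTF-iPS 2 or 3F-TTF-iPS 2, and 2 (Rrm1 and Tyms) without 3F-TTF-iPS 4 or 3F-TTF-iPS 5.

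**Figure D3:**
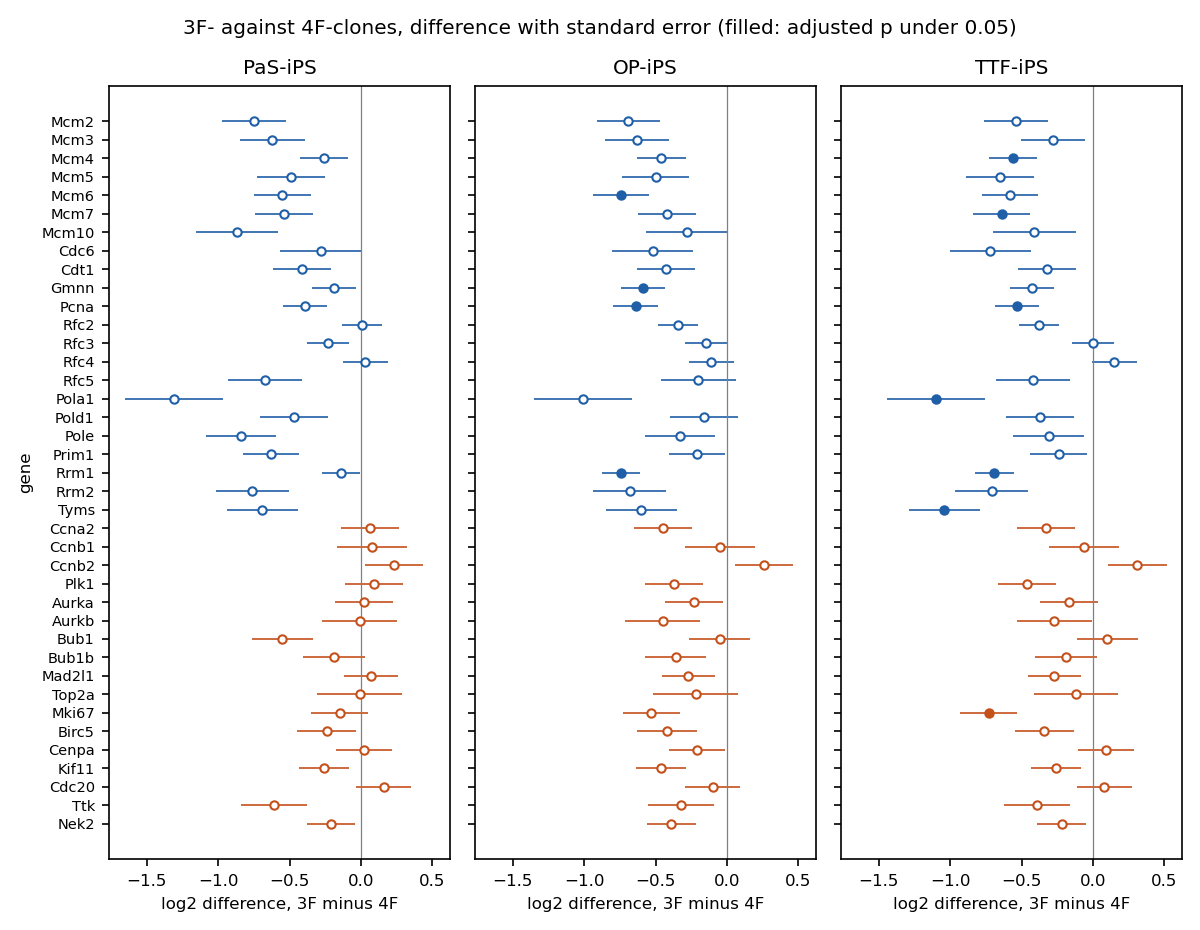
Log2 difference of 3F minus 4F clones for each of the 39 genes in PaS-, OP- and TTF-derived clones, with error bars of 1 SE, and filled points for an adjusted p under 0.05. Most replication genes lie left of 0 in all 3 panels, while mitosis genes lie around 0 in the PaS panel (median -0.01) and mostly left of it in the others.

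The difference between 3F and 4F clones did not pass a test of its own difference between sources for any member. All probes passed at 0.691% (OP minus PaS), 0.615% (TTF minus PaS) and 0.0% (OP minus TTF, with 1028 probes at an unadjusted p under 0.05). Rrm1 had the smallest p among members, with a difference of differences of -0.59 for OP minus PaS (SE 0.19, limma adjusted p = 0.104) and -0.54 for TTF minus PaS (SE 0.19, limma adjusted p = 0.131). Mitosis genes were led by Bub1 (0.65, SE 0.303) and Mki67 (-0.58, SE 0.281), both TTF minus PaS, with adjusted p of 0.237 and 0.251.

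Markers of other cell types were counted in the same comparisons. Over all sources 3 of 17 fibroblast markers tested rose in 3F clones (Postn 1.88, Col5a1 1.06 and Loxl1 0.96), as did 2 of 12 pluripotent cell markers (Dppa3 2.37 and Dppa5a 1.74), and none of 8 blood cell markers did, beside 11.3% of all probes. Of the 12 pluripotent cell markers 4 were below 0, the lowest at -0.99. The summed level of 18 fibroblast markers had medians of 7.33 (PaS), 7.28 (OP) and 7.60 (TTF) in the 4F groups and of 7.58, 7.84 and 7.35 in the 3F groups in that order. It ranged from 6.47 to 8.72 over all clones, so the groups overlapped. In PaS-derived clones all 12 pluripotent cell markers were below 0 (median -0.98, -1.60 to -0.18) and none passed the test. In OP-derived clones their median was 3.08 and Dppa5a (3.76) and Zfp42 (2.41) rose, while the fibroblast markers had a median of 1.34 and Col5a1 (1.63) and Loxl1 (1.34) rose. In TTF-derived clones the pluripotent cell markers had a median of 1.29 (-1.21 to 3.32) and the fibroblast markers one of 0.48, and none of either passed. The part of these cells in the members' differences was not tested. Without the 3 clones lacking Sox2 and Nanog, 21 of the 24 members called over all sources remained, as did 1 of 4 in OP-derived and 3 of 7 in TTF-derived clones. The differences of those 4 were then -0.55 to -0.79 (-0.59 to -0.74 with all clones), and those of the 7 were -0.53 to -1.17 (-0.53 to -1.10 with all clones).

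The other genes of the replication machinery were counted too. Of 35 measured, 16 fell and none rose over all sources in the limma fit, where 9.89% of all probes fell and 11.3% rose. Among the 16 were Uhrf1, which brings the maintenance methyltransferase to new DNA, at -0.89 (SE 0.123, adjusted p = 3.2e-05), the single-strand binding subunit Rpa1 at -0.64, and the helicase partners Cdc45 at -0.62 and Gins1 at -0.58. In OP-derived clones 5 fell (3.27% of all probes), led by Uhrf1 (-1.05), Cdc45 (-0.90), Tk1 (-0.89) and Prim2 (-0.79). In TTF-derived clones 5 fell (4.36% of all probes), led by Tk1 (-0.88), Dut (-0.79), Uhrf1 (-0.73) and Cdc45 (-0.67), and the helicase relative Mcm8 rose (0.61), as did 5.75% of all probes. No gene of this list passed in PaS-derived clones.

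Of 34 other mitosis genes, 4 fell over all sources (Racgap1 -0.45, Anln -0.40, Kif23 -0.38 and Bub3 -0.22) and 2 rose (the securin Pttg1 0.50 and the spindle protein Ckap2 0.44). These shares are close to or below those of all probes (9.89% lower and 11.3% higher). Racgap1, Anln and Ckap2 also passed in the same directions in OP-derived clones (-0.76, -0.65 and 0.58) and in TTF-derived clones (-0.64, -0.55 and 0.64).

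Of 32 cell cycle regulators, 6 fell and 1 rose over all sources, beside 9.89% and 11.3% of all probes. Myc itself was -1.93 (SE 0.482, limma adjusted p = 0.00568), and the probe's share of viral c-Myc RNA was not tested. E2f2, an activating E2F factor, was -1.12, the cyclin D partner Cdk4 was -0.68 and Fbxo5, an inhibitor of the anaphase-promoting complex, was -0.57. The inhibitor Cdkn1c rose by 1.32. In TTF-derived clones Myc (-2.85), Cdk4 (-0.81) and Skp2 (-0.55) fell, in OP-derived clones Cdkn2d (-0.73) did, and in PaS-derived clones none passed.

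No member passed the test between clones of different sources in the fit of all arrays without a block. Between PaS- and OP-derived clones, Cdt1 passed without 4F-OP-iPS 2 (limma adjusted p = 0.0168), 4F-OP-iPS 4 (0.0244), 4F-PaS-iPS 3 (0.0497) or either ES array (0.046), and with the replicate number as a block (0.0466), at 0.45 to 0.51 in each. Cdt1 did not pass without the 3 clones lacking Sox2 and Nanog (limma adjusted p = 0.396). Nor did it with normexp background correction (0.3) or with slide as a random block (0.104). Cdc6 passed without 4F-OP-iPS 2 (0.55, limma adjusted p = 0.0498). With 3F and 4F weighted equally, 3.69% of all probes passed between PaS- and OP-derived clones, 1.3% between PaS- and TTF-derived and 0.029% between OP- and TTF-derived. At an unadjusted p under 0.05 there were 5, 1 and 1 replication genes and no mitosis gene, and 5944, 4588 and 2806 probes in all. The member differences lay between -0.33 and 0.45 (PaS minus OP), -0.28 and 0.32 (PaS minus TTF) and -0.49 and 0.18 (OP minus TTF), with SE of 0.0949 to 0.243. The largest were in the helicase loaders, Cdt1 at 0.45 (SE 0.143, limma adjusted p = 0.0733) and Cdc6 at 0.44 (SE 0.201) for PaS minus OP, and Cdc6 at -0.49 for OP minus TTF. Between PaS and TTF the largest were Rfc5 at 0.32 and Rrm1 at -0.28. Group ranges overlapped for all of these genes.

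Between PaS- and OP-derived clones 3.69% of all probes passed, in either direction. Among the cell cycle regulators, 5 of 32 were lower in PaS-derived clones in the limma fit. They were Myc (-2.34, adjusted p = 0.0281), the cyclin-dependent kinase inhibitors Cdkn2a (-2.10, adjusted p = 0.00645) and Cdkn1a (-0.71), and the pocket proteins Rb1 (-0.77) and Rbl1 (-0.58). Of 35 other replication genes, 1 was higher, the origin recognition subunit Orc1 (0.70). The 12 pluripotent cell markers had a median of 1.91 (0.55 to 2.76), and Zfp42 (1.81) passed. The clones lacking Sox2 and Nanog were included, and the viral share of the Myc signal was not tested.

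Both ES lines had higher levels of most members than the clones. In clones against ES lines, 21 of 22 replication genes and 11 of 17 mitosis genes fell and none rose (limma), where 28.8% of all probes were lower and 23.6% higher. At least 2-fold differences were found for 17 and 6 of them. The median difference was -1.39 for replication genes and -0.75 for mitosis genes, against -0.11 over all probes. The fibroblast marker sum was 6.47 to 8.72 on the clones, 7.33 on RF 8 and 1.22 on EB-3, on which 11 of 18 such markers were above background, and 13 of 17 tested were higher in clones than in ES lines. The 12 pluripotent cell markers were all below 0 in clones against ES lines (median -2.76), and 4 of them fell (Zfp42 -5.34, Tdgf1 -3.35, Gdf3 -2.83 and Sall4 -1.37). The part of either list in the members' differences was not tested.

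Pola1 was 3.08 in EB-3 and 2.39 in RF 8, against -0.41 to 2.41 in the clones (clones minus ES -1.99, SE 0.397, limma adjusted p = 0.000156). Tyms was 5.0 and 4.58, against 2.00 to 3.99 (-1.92, SE 0.287, limma adjusted p = 4.39e-06). Clone 4F-PaS-iPS 2 reached RF 8 for Pola1, while both ES lines were above every clone for Tyms.

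Rrm2 was 3.55 in EB-3 and 3.10 in RF 8, against 0.66 to 2.64 in the clones, a difference of -1.78. The Mcm genes differed by between -1.77 (Mcm3) and -0.78 (Mcm6), and the clamp loader genes Rfc3 and Rfc5 by -1.46 and -1.71. Rfc2 was the replication gene that missed the threshold (-0.29, SE 0.162, limma adjusted p = 0.129).

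Of the mitosis genes, Ttk was -0.44 in EB-3 and -0.35 in RF 8, against -3.05 to -1.29 in the clones (-1.79, limma adjusted p = 4.69e-06). Kif11 was 0.63 and 0.38, against -1.92 to -0.46 (-1.73, SE 0.202, limma adjusted p = 1.31e-07). Both ES lines were above every clone for these 2 genes. The checkpoint kinase Bub1 (-1.44), Mki67 (-1.23), Birc5 (-1.17) and Nek2 (-1.04) also fell by more than 2-fold, and Bub1b, Mad2l1, Cenpa, Plk1 and Aurka fell by between 0.63 and 0.94 on the log2 scale. Aurka missed the threshold with slide as a random block, and Aurka and Plk1 missed it with quantile normalization, as did the replication gene Pold1 in both settings. The cyclins Ccna2, Ccnb1 and Ccnb2, Aurkb, Top2a and Cdc20 missed the threshold in the main fit, at -0.75 to -0.42.

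EB-3 was above all 30 clones for 22 of 22 replication and 10 of 17 mitosis genes (25.8% of all probes), and RF 8 for 13 and 9 (22.6%). Both were above all clones for 13 replication (59.1%) and 6 mitosis genes (35.3%), against 14.4% of all probes. EB-3 was above RF 8 for 20 of 22 replication genes (median difference 0.61) and 10 of 17 mitosis genes (0.15), against a median of -0.06 over all probes. Pold1 and Mcm10 had the widest gaps between the lines among replication genes (1.56 and 1.52), and Cdc6 and Rfc3 were higher in RF 8. Without EB-3, 20 members passed and the replication median was -0.97, and Pold1 changed sign to 0.109 (limma adjusted p = 0.818). Each line was hybridised once, EB-3 on the slide of the source arrays and RF 8 on another slide in another session, so line and session cannot be told apart.

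**Figure D4:**
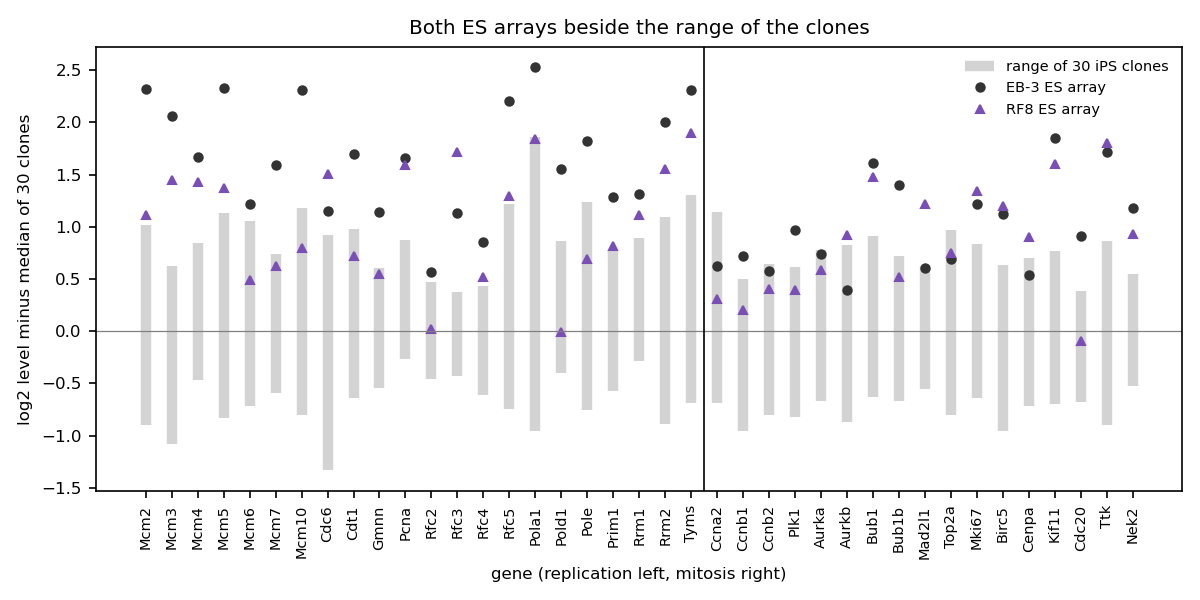
Log2 difference of each ES array (vertical axis) from each gene's median over the 30 clones, for the 39 genes, with a grey bar for the range of the 30 clones. EB-3 lies above the grey bar for all 22 replication genes and RF 8 for 13, and for mitosis genes these counts are 10 and 9 of 17.

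The other cell cycle lists were counted in the same way, beside 28.8% of all probes lower and 23.6% higher. Of 35 other replication genes, 26 fell in clones, led by Orc1 (-2.50), the polymerase subunit Pole2 (-2.24), Uhrf1 (-2.16) and Rpa1 (-2.12), and 3 rose, including Prim2 (2.71) and Pold3 (2.07). Of 34 other mitosis genes, 14 fell, led by Ect2 (-1.29) and Cenpf (-1.19), and Cdc25a rose (0.98). Of 32 regulators, 14 fell, including Mycn (-2.13), E2f2 (-2.08) and Ccne1 (-1.91), and 7 rose, led by the inhibitors Cdkn1a (2.82), Cdkn2b (2.82) and Cdkn2a (2.80), a share close to that of all probes.

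The source cells stood apart from one another in these genes, with OP cells the lowest. Each source had 1 array, so these are values with no test, given as the source array minus the mean of its own 10 clones. In OP cells 21 of 22 replication genes and 17 of 17 mitosis genes were at least 2-fold lower than in OP-derived clones, where 26.3% of all probes were lower and 19.8% higher by that much. In TTF these were 11 and 13 (all probes 29.4% lower and 18.8% higher), and in PaS cells 7 and 3 (29.0% and 16.7%). The source arrays were scanned in another session than the clones, and source and session cannot be told apart in these differences.

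In OP cells the median difference was -2.78 for replication genes (-5.16 to -0.65) and -4.95 for mitosis genes (-5.60 to -2.60), against -0.10 over all probes. All 39 members were below all 10 OP-derived clones. Among replication genes the largest differences were in the initiation factors Mcm10 (-5.16), Cdt1 (-4.64) and Cdc6 (-4.2), and the smallest in Rfc3 (-0.65), Rrm2 (-1.06), Pcna (-1.12), Rfc2 (-1.21) and Tyms (-1.31). Among mitosis genes Ccnb1 (-5.60), Bub1 (-5.52), Top2a (-5.52) and Bub1b (-5.34) differed most, and Mad2l1 (-2.60) least. Ttk was not well above background on the OP array and was at least 19.6-fold lower than in its clones, counted from the lowest signal well above background on that array.

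In TTF the median was -1.02 for replication and -1.78 for mitosis genes, against -0.22 over all probes. Ccnb1 (-3.03), Cdc20 (-2.93) and Plk1 (-2.57) led the mitosis genes, and Cdc6 (-2.22) and Mcm10 (-1.92) the replication genes. Pcna was the 1 member at least 2-fold higher (1.15), and Mki67 (-0.56), Mad2l1 (-0.72), Birc5 (-0.82) and Cenpa (-0.82) were the 4 mitosis genes under 2-fold. Blood cell markers were present on this array, with a summed level of 8.58 against 2.61 in PaS cells, 4.15 in OP cells and -0.43 to 1.33 in the clones. On it 11 of 14 such markers were above background, Ptprc (CD45) at 4.14 among them. Lyz1 alone was 7.68 in TTF, 2.56 in PaS cells and 4.13 in OP cells, and made up nearly all of the PaS and OP sums. Endothelial markers summed to 3.03 in TTF, mostly Vwf (2.94), against -2.89 in PaS cells, -4.06 in OP cells and -0.10 to 2.14 in the clones. The part of either list in the members' levels was not tested.

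In PaS cells the median was -0.52 for replication and -0.57 for mitosis genes, against -0.25 over all probes. The 7 replication genes at least 2-fold lower were Gmnn (-1.82), Cdt1 (-1.78), Cdc6 (-1.50), Rfc5 (-1.43), Mcm10 (-1.38), Pold1 (-1.33) and Rfc4 (-1.32), and the mitosis genes were Ccnb1 (-1.39), Bub1b (-1.10) and Top2a (-1.07). The replication share is close to that of all probes (29.0%), and the mitosis share is below it. Rrm2 was higher by 2.45, which is 5.47-fold, and its subunit partner Rrm1 by 0.96. Mki67 was also on the higher side (0.33).

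**Figure D5:**
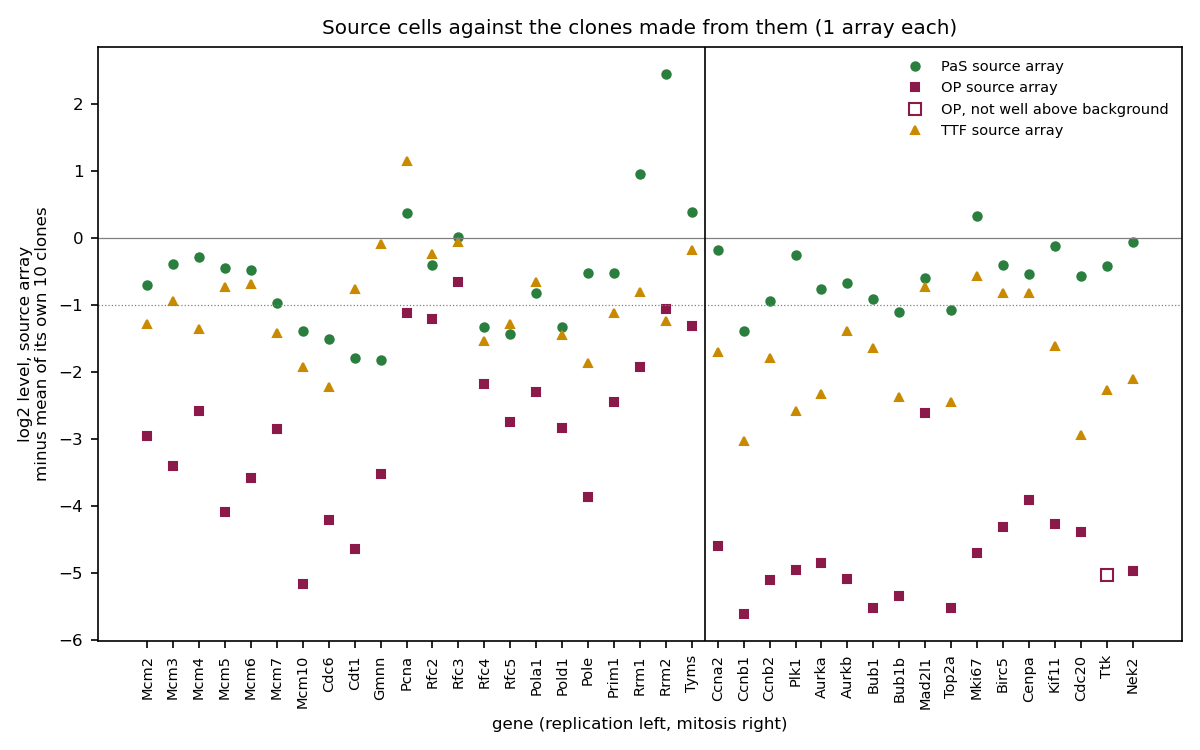
Log2 difference (vertical axis) of each source array from the mean of its own 10 clones for the 39 genes, 1 array per source, with a dotted line at -1 (2-fold lower) and an open square for Ttk in OP cells, which was not well above background, drawn at its measured value. The OP points lie below the dotted line for all genes except Rfc3, and for every mitosis gene the PaS points lie nearest to 0 with the TTF points between.

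The 3 source arrays shared a slide and can be set side by side. The OP array was the lowest of the 3 for 21 of 22 replication genes (95.5%) and 17 of 17 mitosis genes (100%), against 23.2% of all probes, and the PaS array was the highest for 16 and 17, against 28.6% of all probes. OP minus PaS had medians of -2.26 for replication and -4.33 for mitosis genes (0.17 over all probes), and TTF minus PaS of -0.44 and -1.28 (0.04 over all probes). Mki67 was 3.69 in PaS cells, 3.08 in TTF and -1.06 in OP cells. Ccnb1 was 1.68, 0.05 and -2.68 in the same order, and Mcm2 was 2.04, 1.33 and -0.53. Rrm2 was 3.87 in PaS cells but 0.40 in TTF and 0.54 in OP cells.

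The EB-3 array lay on that slide too. Against it, at least 2-fold lower levels were found for 35 members in PaS cells, 37 in TTF and 39 in OP cells, and for 38.0%, 36.3% and 35.4% of all probes. The medians were -2.34, -2.87 and -4.47 for replication genes and -1.43, -3.12 and -5.77 for mitosis genes, beside -0.49, -0.33 and -0.28 over all probes. This reference was chosen after the values had been seen. For each gene the same EB-3 level is subtracted from all 3 source arrays, so their order cannot change.

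Among the other lists, 10 of 34 other mitosis genes were at least 2-fold lower than the clones in PaS cells, 30 in TTF and 33 in OP cells. Other replication genes gave 9, 15 and 24 of 35. For PaS cells both shares are about that of all probes (29.0%), and in TTF and OP cells all probes gave 29.4% and 26.3%. Of 32 regulators, 6 were at least 2-fold lower and 14 higher in PaS cells, 12 and 5 in OP cells and 8 and 6 in TTF. The late E2F repressor E2f7 (-4.23) and Fbxo5 (-4.66) were among the lower ones in OP cells. Mycn was at -5.89 in PaS cells and not well above background in OP cells and TTF, against 0.72 to 2.85 in the clones. The cyclin Ccnd1 was higher than in the clones in all 3 sources, by 3.55 in PaS cells, 2.11 in OP cells and 2.30 in TTF. Fibroblast markers were above background on all 3 arrays (18 of 18), with summed levels of 9.88 in PaS cells, 10.59 in OP cells and 9.59 in TTF.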

How the data were processed

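RNA of 35 samples, labelled with Cy3, was hybridised to 1-colour Agilent whole-mouse-genome arrays. The deposited scanner files hold intensity per spot, as the processed signal that Agilent Feature Extraction gave after subtracting background. The authors' table holds log2 values of the same arrays scaled to the 75th percentile, per the values, and was used as an alternative. Control and outlier-flagged spots were left out, repeated spots averaged, and each array's log2 75th percentile subtracted. Probes that stood well above background throughout 1 or more of the 7 groups were tested with limma 3.58.1 (R 4.3.3), with 30 clones and 2 ES arrays in 1 fit and Benjamini-Hochberg adjustment over all 27623 probes. The script was tested on simulated data. Precision is limited by the number of arrays.

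Groups came from the sample labels. Members and lists were chosen with earlier results of these data known. Values per clone are given for up to 4 called members of largest change per comparison (2 where none was called), and up to 4 called genes of each other list. Some further genes were named after their values were seen, such as those of the regulators on the source arrays. Slide, replicate number, normalization, background correction, filter and left-out clones were varied. Probe positions refer to build mm7 in the scanner files, in which the Pola1 probe lies on chromosome X from 88691502 to 88691561 and the Rrm1 probe on chromosome 7 from 98514808 to 98514868.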

Additional observations from a re-analysis of the deposited data

Results flagged for a closer look

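In the 3F-PaS-iPS group, Mcm6 was 6.13 in clone 1 and 5.54 to 5.61 in the other 4 clones, and the gap to the nearest clone was 0.88 of the group's range. In the 3F-TTF-iPS group, Rrm2 was 1.93 in clone 3 and 0.98 to 1.23 in the other 4, a gap of 0.73 of the range. The critical value for 5 samples is 0.71. Both stood out in a search of 72 sets of 5 clone values, which come from the 6 clone groups and so share clones. Chance alone is expected to mark about 1 in 20 sets, a share that 2 of 72 does not reach.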

How the results depend on the processing

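Of the members named as called, the direction held under every alternative except for Pold1 in clones against ES, which was 0.109 without ES replicate 1 (EB-3) and -1.451 without ES replicate 2 (RF 8). Members called in OP-derived clones (4) became 1 with normexp background correction, 1 with slide as a random block, 1 without the 3 clones lacking Sox2 and Nanog, 0 with only the groups compared and 0 at 2-fold. In TTF-derived clones the 7 became 2, 0, 3, 16 and 2 under these settings. Over all sources the 24 became 15 with normexp, 7 with slide as a random block and 1 at 2-fold. With only the groups compared, 1 member was called between PaS- and TTF-derived clones and 1 for the difference of the 3F-4F effect between sources. With EB-3 as reference, chosen after seeing the data, the members at least 2-fold lower rose in number from 10 to 35 in PaS cells and from 24 to 37 in TTF.

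Leaving out 1 array at a time gave 0 to 5 called members in PaS-derived clones (5 without 4F-PaS-iPS 3, 1 without 4F-PaS-iPS 5), 3 to 7 in OP-derived clones (7 without 4F-OP-iPS 5), 2 to 9 in TTF-derived clones and 19 to 25 over all sources. It gave 0 to 2 between PaS- and OP-derived clones (Cdt1 and Cdc6 without 4F-OP-iPS 2, and Cdt1 alone without 4F-PaS-iPS 3, 4F-OP-iPS 4, EB-3 or RF 8), 0 to 1 for the difference between sources (1 without 4F-OP-iPS 5), and 20 to 35 against ES, with a replication median of -1.601 to -0.970. The lone ES array was then assumed to vary like the clones.

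The replicate numbers did not pair the clones: 16 of 75 same-number pairs correlated above 0.1 (median -0.000787). With the replicate number as a block, 0, 6 and 8 members were called in PaS-, OP- and TTF-derived clones, 25 over all sources, 1 (Cdt1) between PaS- and OP-derived clones, and 0 in the other source comparisons and for the difference between sources.

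Normexp moved the median of all probes to -0.222 for 3F against 4F in PaS-derived clones, with members at -0.33 (replication) and 0.11 (mitosis). It moved that median to 0.147 for PaS- against OP-derived clones, 0.113 for PaS- against TTF-derived clones, and 0.262 and 0.263 for the difference of the 3F-4F effect of OP and of TTF from PaS. Quantile normalization changed the calls over all probes from 1335 higher and 902 lower to 971 and 1185 in OP-derived clones, from 1587 and 1203 to 1472 and 1740 in TTF-derived clones, and from 3124 and 2733 to 2782 and 3371 over all sources. The causes were not tested.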
